A study of Homo sapiens with 6 samples.

Results

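Open chromatin near the ends of human chromosomes was examined in ATAC-seq peak lists of HCT116, a cell line established from a human colon cancer. In ATAC-seq a transposase inserts sequencing adapters into accessible DNA, and a caller marks stretches with more fragments than their surroundings as peaks. The lists came from 3 libraries of NuMA-depleted cells (genotype and treatment both labelled NuMA depletion) and 3 libraries of wild-type cells, one list per library. The labels do not say how NuMA was removed, whether a line was clonal, or whether replicates were separate cultures, so a p-value between the groups measures only the spread of these libraries, which may be technical. Peaks of the 6 lists that overlapped by at least 1 bp were merged into 58926 regions. A region was counted as near a chromosome end when its midpoint lay in the first 2 Mb of chromosomes 1 to 12, 16 to 18 or 20, or in the last 2 Mb of chromosomes 1 to 18 or 20 to 22 (hg19). These 37 windows, 16 on short arms and 21 on long arms, span 74 Mb and held 2397 regions, or 4.07% of all.

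Human chromosomes end in telomeric repeats, next to which lie subtelomeric segments that share sequence between chromosomes. Just inside them many chromosome ends are rich in genes and in G and C bases, while a few end in gene-poor stretches. Genes known to lie in these windows include TERT on 5p, which encodes the catalytic subunit of telomerase, the alpha-globin gene HBA1 and the Wnt pathway inhibitor AXIN1 on 16p, and the receptor gene NOTCH1 on 9q. NuMA is a nuclear protein that organises the poles of the mitotic spindle and is part of the interphase nucleoskeleton, and the series asked about its part in local chromatin architecture. Genes are named here only as background on an arm, and no region was assigned to a gene.

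Deposited lists held between 21783 and 45892 peaks in the NuMA-depleted libraries and between 32503 and 38685 in the wild-type libraries. NuMA-depleted replicate 3 had the shortest list and NuMA-depleted replicate 2 the longest. Relative depth, recovered from the peak values on a scale where the mean library is 1, was 1.07 to 1.21 in the NuMA-depleted and 0.762 to 0.975 in the wild-type libraries. By this estimate every NuMA-depleted library was deeper than every wild-type library, so depth as estimated cannot be told apart from the group. The read depth itself is unknown.

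Chromosome ends were denser in called peaks than the rest of the same 21 chromosomes in all 6 libraries. In the NuMA-depleted libraries 1, 2 and 3 the windows held 22.1, 25.9 and 11.6 peaks per Mb, against 12.5, 15.01 and 7.11 per Mb in the rest. In the wild-type libraries 1, 2 and 3 they held 19.7, 22.96 and 19.5 peaks per Mb, against 11.6, 12.6 and 10.5 in the rest. The ratio of the windows to the rest lay between 1.63, seen in NuMA-depleted replicate 3, and 1.85, seen in wild-type replicate 3, so libraries of very different list length gave a similar excess. The mean over libraries was 20.3 ± 4.87 peaks per Mb in the windows and 11.6 ± 2.63 in the rest (SD, n = 6), a difference of 8.71 with p = 0.0312 in an exact sign-flip permutation test over libraries (two-sided), the smallest p that 6 libraries allow. Adjusted over the 3 comparisons of windows with rest, it gave p = 0.0938 in the same exact test, and the 6 libraries share 1 genome. Lengths include unsequenced stretches of the assembly, whose part in either density was not tested.

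**Figure D1:**
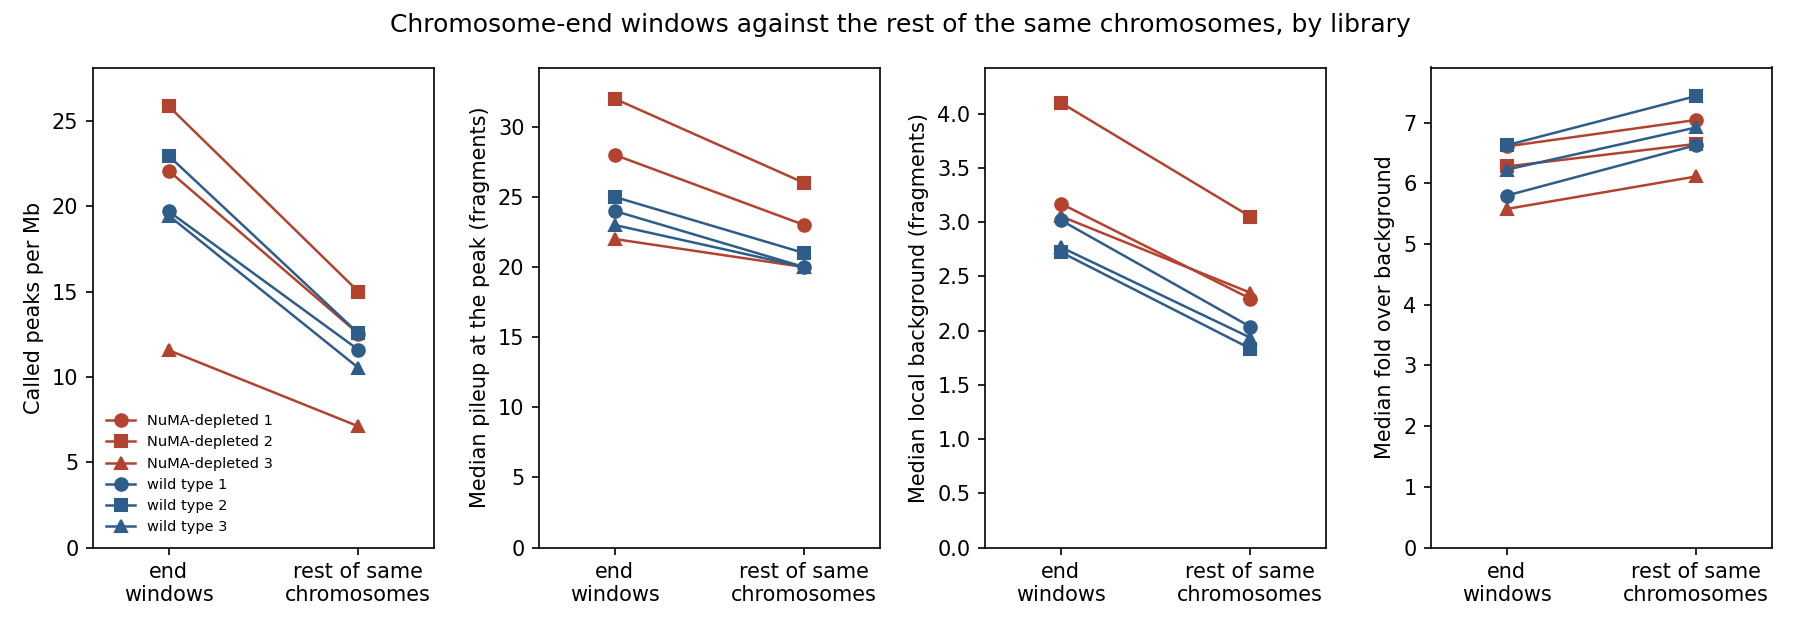
Values of the end windows (left in each panel) and of the rest of the same chromosomes (right) for each of the 6 libraries, NuMA-depleted in red and wild type in blue. Peak density, pileup and local background are higher in the end windows in all 6 libraries, while the median fold is lower in all 6.

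Peaks at chromosome ends also stood closer together, and whether more so than their higher density entails was not tested. Peaks with a gap of under 1 kb to the next made up 4.22%, 3.87% and 2.45% of those in the windows in NuMA-depleted replicates 1, 2 and 3, against 2.92%, 2.32% and 1.94% in the rest of the same chromosomes. In wild-type replicates 1, 2 and 3 the shares were 4.66%, 5.30% and 4.79% in the windows, against 3.39%, 3.94% and 2.92% in the rest. The windows were higher in 6 of 6 libraries. Between merged regions the median gap was 14.2 kb in the windows and 19.7 kb in the rest, and 39.3% of gaps in the windows were under 10 kb, against 30.0% in the rest. The densest 100 kb, picked after the values were seen, held 17 regions on chromosome 11 between 746844 and 844605, of which 5 were called in all 6 libraries.

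The excess was uneven within the windows. In steps of 250 kb, the outermost step had 15.5 regions per Mb, and the next 7 steps had 31.6 to 37.9. All 6 libraries showed the low outer step: it held 9.51, 11.8 and 5.62 peaks per Mb in NuMA-depleted replicates 1, 2 and 3 and 9.41, 10.3 and 8.43 in wild-type replicates 1, 2 and 3. The step from 0.5 to 0.75 Mb held 26.4, 29.7 and 15.1 peaks per Mb in the same NuMA-depleted replicates and 24.4, 26.7 and 22.7 in the wild-type ones. Further from the end, density declined to 27.8 regions per Mb between 2 and 4 Mb, 26.3 between 4 and 6 Mb and 23.7 between 6 and 8 Mb, and was 24.96 between 8 and 10 Mb. The 2 Mb limit fell on no step in density: 121 regions lay in the last 0.1 Mb inside it and 123 in the first 0.1 Mb outside. The share of regions called in all 6 libraries was 25.9% in the outermost 250 kb and 26.8% to 33.5% in the other steps. How much of the outermost step is unsequenced or shared between chromosomes was not tested.

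**Figure D2:**
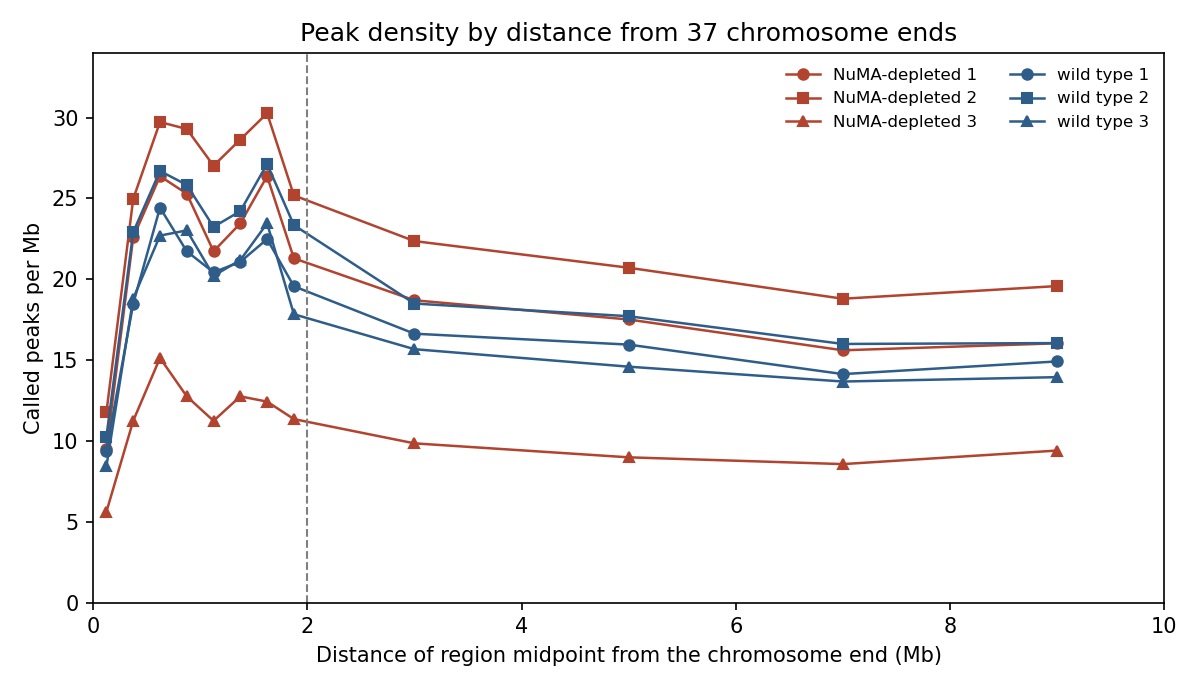
Called peaks per Mb (vertical axis) by distance of the merged region from the chromosome end (horizontal axis, Mb), with points at the middle of 250 kb steps up to 2 Mb and of 2 Mb steps beyond, summed over 37 ends. Each line is a library, NuMA-depleted in red and wild type in blue; all 6 are lowest in the outermost step and highest between 0.5 and 1.75 Mb.

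Peaks near chromosome ends rose from a higher local background, and their fold over it was lower. The deposited fold and p-value of a peak together give, under a Poisson model, the number of fragments piled up at the peak and the background the caller set for that place. The median pileup was 28, 32 and 22 fragments in the windows in NuMA-depleted replicates 1, 2 and 3, against 23, 26 and 20 in the rest. It was 24, 25 and 23 fragments in the windows in wild-type replicates 1, 2 and 3, against 20, 21 and 20 in the rest. The median background was 3.17, 4.10 and 3.05 fragments in the windows in the NuMA-depleted replicates, against 2.29, 3.05 and 2.35 in the rest. In the wild-type replicates it was 3.02, 2.72 and 2.77 fragments in the windows, against 2.04, 1.83 and 1.94 in the rest. The background was thus 1.38, 1.34 and 1.30 times that of the rest in NuMA-depleted replicates 1, 2 and 3, against 1.48, 1.48 and 1.43 times in wild-type replicates 1, 2 and 3. All 3 NuMA-depleted ratios lay below all 3 wild-type ratios, as they also did without the windows of 8q, 10q, 16q and 17q, and relative depth separated the groups as well; its part was not tested. The pileup was 1.10 to 1.23 times that of the rest in all 6 libraries. Only called peaks enter these medians, and over a higher background a peak needs a larger pileup to be called. Pileup, background and fold are therefore not independent, and how much this raised the pileup was not tested. The median fold, each list's own value, was 6.61, 6.28 and 5.58 in the windows in the NuMA-depleted replicates, against 7.04, 6.65 and 6.11 in the rest. It was 5.80, 6.63 and 6.22 in the windows in the wild-type replicates, against 6.63, 7.44 and 6.92 in the rest. These measures were added after the data were seen and are given without a test.

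Peak width and rank within the list gave no such uniform difference. The median width was 477, 543 and 422 bp in the windows in NuMA-depleted replicates 1, 2 and 3, against 459, 534 and 444 bp in the rest, and 446, 433 and 478 bp in the windows in wild-type replicates 1, 2 and 3, against 445, 433 and 466 bp in the rest. The mean difference of 3.17 bp (SD 13.9, n = 6) had p = 0.625 in the exact sign-flip test (adjusted p = 0.625). With the strongest 21783 peaks of each library the windows had narrower peaks in 6 of 6 libraries, by a mean of -19.9 bp (exact p = 0.0312, unadjusted). By the q-value, the caller's p-value adjusted over the list, peaks in the windows had a median percentile of 54.8, 54.4 and 49.5 within their own lists in the NuMA-depleted replicates and 50.5, 52.0 and 50.1 in the wild-type replicates. The rest lay between 49.8 and 50.4, and the mean difference of 1.81 percentile points had p = 0.188 (exact sign-flip test, adjusted p = 0.281).

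The 37 ends differed widely in how many regions they held, and 17q and 8q led in every library. The 17q end, known to carry the fatty acid synthase gene FASN and the actin gene ACTG1, held 124 regions. It was followed by 8q, with the cytoskeletal linker gene PLEC and the heat shock factor gene HSF1, at 112 regions, by 16q at 107 and by 16p at 106. These 4 ends held 449 regions, or 18.7% of all those near chromosome ends, and 36.7% of theirs were called in all 6 libraries. At the other extreme, 3p held a single region, 4q held 22, 1q held 26 and 18p held 27. The 3p end carries CHL1 and CNTN6, large genes of neuronal adhesion molecules, and its region on chromosome 3 at 396221 to 396441 was called in wild-type replicate 2 alone, with a fold of 4.00. Short-arm ends had a median of 61.5 regions, from 1 to 106, and long-arm ends a median of 68, from 22 to 124.

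By library, 17q held 95, 107 and 53 peaks in NuMA-depleted replicates 1, 2 and 3 and 92, 104 and 91 in wild-type replicates 1, 2 and 3. The 8q end held 87, 100 and 56 peaks in those NuMA-depleted replicates and 89, 91 and 82 in the wild-type ones. The 17q end ranked first in 5 libraries and 8q in NuMA-depleted replicate 3, where 17q came second. The 4q end held 13, 13 and 3 peaks in the NuMA-depleted and 9, 10 and 11 in the wild-type replicates.

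**Figure D3:**
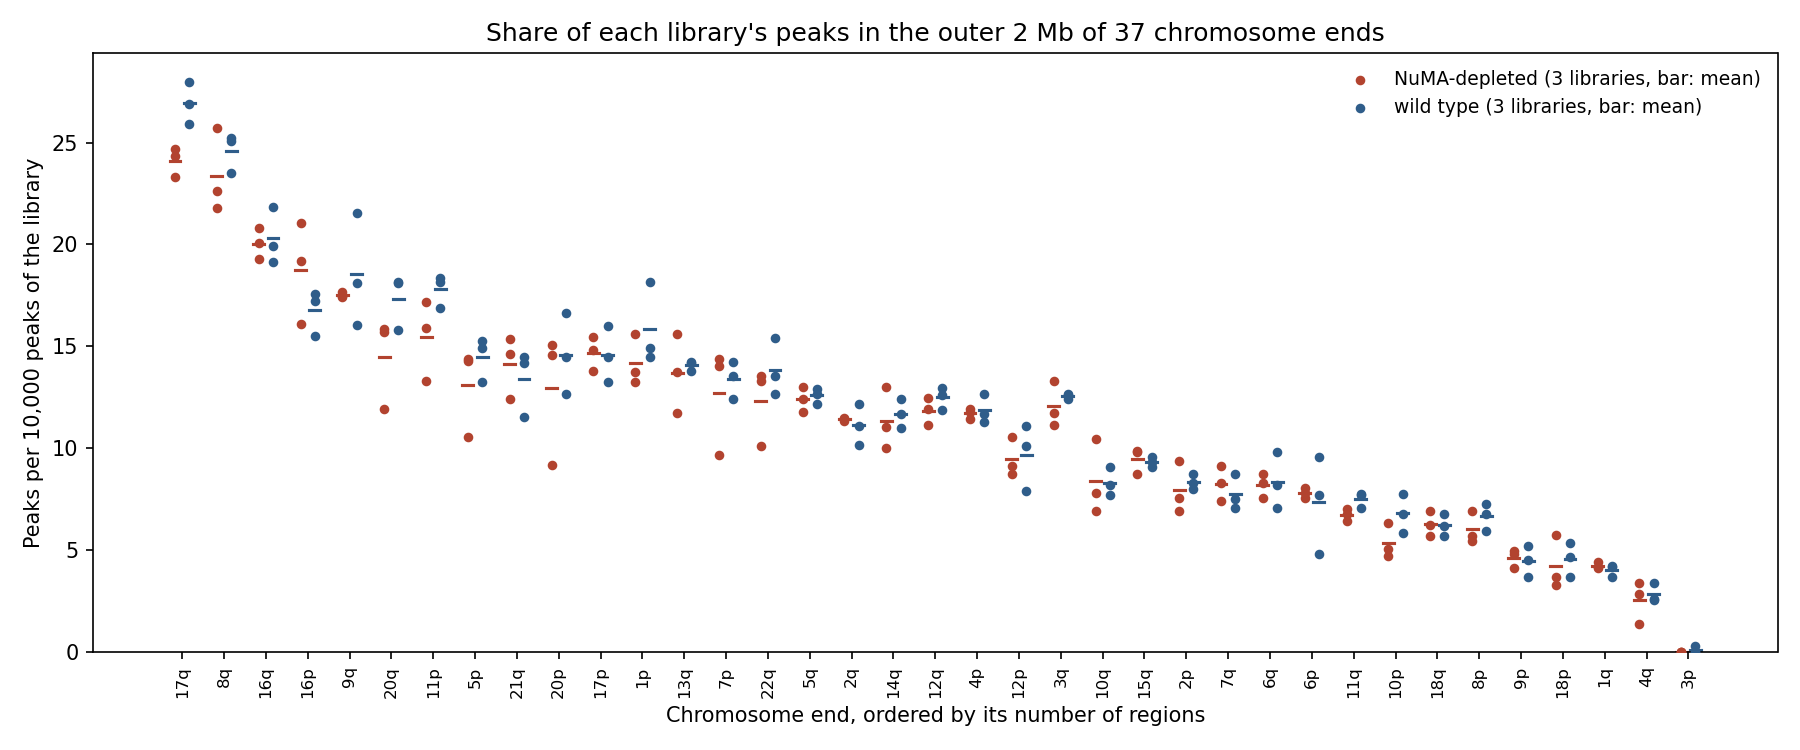
Peaks in the outer 2 Mb of each end per 10000 peaks of the library (vertical axis), for 37 ends ordered by their number of merged regions. Points are libraries, NuMA-depleted in red left of wild type in blue, and bars are means of 3; 17q and 8q have the highest mean share in both groups.

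Local background varied among the ends as well and was high where regions were many. Set against peaks in the rest of the same chromosomes, the median background was 2.97 times as high at 8q (mean of 6 libraries, range 2.47 to 3.37), 2.45 times at 16q (2.09 to 2.78), 2.39 times at 17q (2.11 to 2.67) and 2.18 times at 14q (1.89 to 2.74), which carries the immunoglobulin heavy chain genes. It was above that of the rest at 26 of the 36 ends with more than 1 region and below it at 10. The lowest were 4q at 0.670 times (0.553 to 1.0), 18p at 0.694 (0.581 to 0.784) and 10q at 0.742 (0.567 to 0.835). Over these 36 ends the number of regions and the background ratio had a Spearman rho of 0.77 and a Pearson r of 0.76, a description only, since both come from the same libraries and neighbouring peaks. HCT116 is known to carry extra copies of parts of 8q, 10q, 16q and 17q, and copy number was not measured here. Without the 4 windows of these arms the other 33 still held 1.47 to 1.68 times as many peaks per Mb as the rest in the 6 libraries, with a background 1.17 to 1.34 times as high. The density difference was then 6.98 peaks per Mb (exact sign-flip p = 0.0312).

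**Figure D4:**
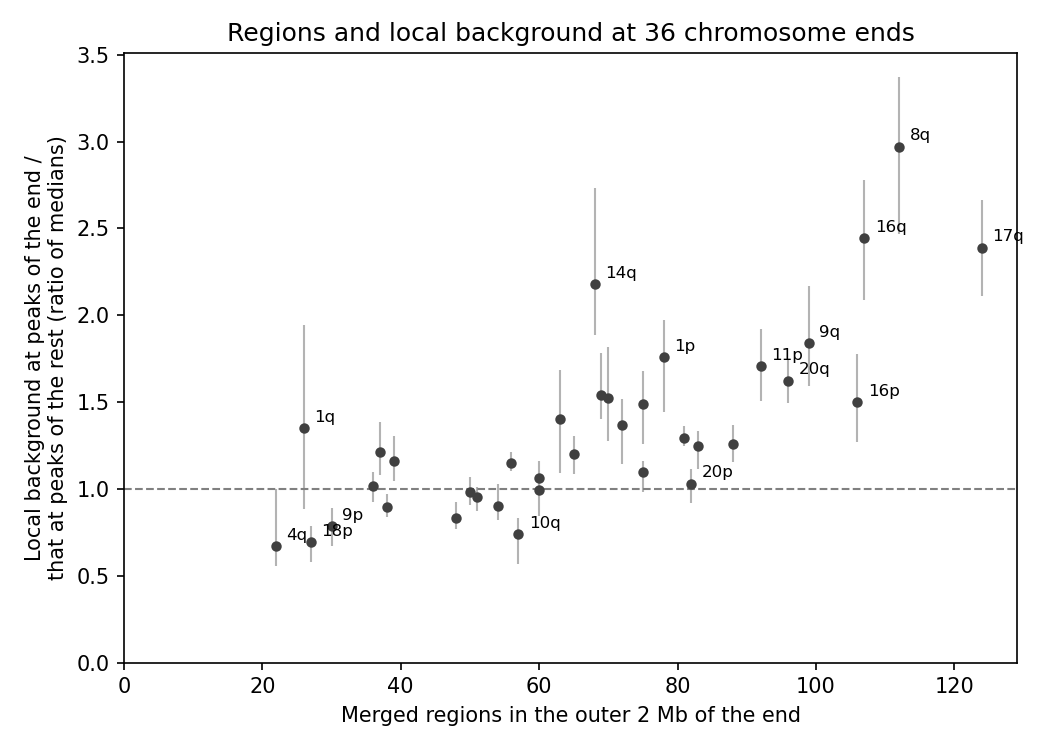
Number of merged regions in the outer 2 Mb (horizontal axis) against the local background at the peaks of that end relative to the rest of the same chromosomes (vertical axis, ratio of medians) for 36 ends. Points are means of 6 libraries and lines run from the lowest to the highest library; 8q, 16q, 17q and 14q lie above 2, and 4q, 18p and 10q lie below 1.

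Of the 2397 regions near chromosome ends, 708 (29.5%) were called in all 6 libraries, against 28.9% of all merged regions. A further 1122 (46.8%) were called in 2 to 5 libraries and 567 (23.7%) in a single library. These shares are close to those of the rest of the same chromosomes, which were 28.5%, 46.1% and 25.4%. Regions missing only from the list of NuMA-depleted replicate 3 made up 296 (12.3%) of those near chromosome ends, against 8.69% of all regions. That library called 840 (35.0%) of the regions near ends and 36.4% of all regions. NuMA-depleted replicates 1 and 2 called 66.9% and 79.6% of the regions near ends, against 64.3% and 77.6% of all regions. Wild-type replicates 1, 2 and 3 called 59.03%, 69.1% and 58.9% of those near ends, against 59.05%, 64.2% and 54.3% of all regions, so replicates 2 and 3 lay above their share over all regions and replicate 1 did not. Regions of a single library were weak, with a median −log10 q of 5.00 and a median fold of 4.51.

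Among regions shared by all 6 libraries, those near the ends were 882 bp wide at the median, and those in the rest of the same chromosomes 918 bp. Their fold, averaged over libraries, had a median of 7.25 (quartiles 5.95 and 8.45) near the ends and 7.97 (quartiles 6.78 and 9.16) in the rest. The share near an end was somewhat lower among the strongest shared regions of the genome, which was not tested. Fold is taken over the local background, which was higher at peaks near ends. Of the 17009 regions called in all 6 libraries 4.16% were near an end. Among the 500 with the highest weakest −log10 q 15 (3.0%) were, and among the 500 with the highest mean fold 10 (2.0%). Among the 500 widest, 22 (4.40%) were. The region near an end with the highest mean fold lay on chromosome 15 at 102264126 to 102264852, where folds ran from 10.7 to 16.6, and it ranked 16 of the 17009 by mean fold.

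The strongest region near an end, by its weakest −log10 q, lay 793 kb from the 16q end on chromosome 16 at 89556953 to 89557606. Its −log10 q was 64.5, 55.5 and 38.0 in NuMA-depleted replicates 1, 2 and 3, against 41.8, 63.2 and 55.0 in wild-type replicates 1, 2 and 3. Its fold was 9.54, 7.88 and 9.30 in the NuMA-depleted and 8.74, 11.3 and 10.3 in the wild-type replicates, so the groups overlapped, with means of 8.91 ± 0.899 and 10.1 ± 1.28 (SD, n = 3 each). The next lay on chromosome 17 at 80415987 to 80417100, with folds of 9.51, 9.59 and 9.21 in the NuMA-depleted and 10.98, 11.2 and 8.92 in the wild-type replicates. Both groups again overlapped, through wild-type replicate 3. On chromosome 4 the region at 467454 to 468316 was the outermost of the 4p end, 468 kb from it, with folds of 12.0, 10.1 and 11.04 in the NuMA-depleted and 10.2, 12.5 and 10.04 in the wild-type replicates. On 8p, the region on chromosome 8 at 680657 to 681692 had folds of 10.05, 9.26 and 10.3 in the NuMA-depleted and 10.9, 12.6 and 10.1 in the wild-type replicates. The sixth by rank, on chromosome 17 at 80656557 to 80657030, had folds of 11.7, 12.99 and 8.95 in the NuMA-depleted and 11.3, 14.1 and 13.6 in the wild-type replicates. The fifth, on chromosome 8 at 144690633 to 144692435, was 1803 bp wide and had folds from 6.40 to 8.61 over the 6 libraries. In each of these 6 regions the folds of the groups overlapped.

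Open chromatin reached close to some chromosome ends. The region nearest to an end that was called in all 6 libraries lay 46.6 kb from the 2p end, on chromosome 2 at 45804 to 47335. It had folds of 7.08, 8.65 and 7.96 in NuMA-depleted replicates 1, 2 and 3, against 7.07, 7.57 and 7.67 in wild-type replicates 1, 2 and 3. On 5p a region 47.6 kb from the end, on chromosome 5 at 47451 to 47845, had folds of 8.36, 9.20 and 5.21 in the NuMA-depleted and 7.37, 9.15 and 7.12 in the wild-type replicates. The 1q region on chromosome 1 at 249200060 to 249201207, 49.4 kb from the end, had folds of 11.5, 9.32 and 6.99 in the NuMA-depleted and 9.84, 12.1 and 9.63 in the wild-type replicates. The 21q region on chromosome 21 at 48055054 to 48056142, 74.4 kb from the end, had folds of 11.3, 10.8 and 9.36 in the NuMA-depleted and 9.87, 12.4 and 9.08 in the wild-type replicates. The groups overlapped at all 4. A region still nearer, 13.2 kb from the 5p end on chromosome 5 at 13055 to 13406, was called in NuMA-depleted replicate 2 and wild-type replicate 1 only. On 1p, by contrast, the nearest region of any library was 714 kb from the end. These distances include unsequenced stretches of the assembly, whose extent at each end was not tested.

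The longest regions shared by all 6 libraries lay on 5p, 20q and 8q. The first, on chromosome 5 at 1799552 to 1802198, was 2647 bp wide with a low fold, 4.77, 4.72 and 3.98 in NuMA-depleted replicates 1, 2 and 3 and 5.19, 5.56 and 5.64 in wild-type replicates 1, 2 and 3. All 3 NuMA-depleted libraries were lower there than all 3 wild-type libraries. The second, on chromosome 20 at 62495328 to 62497970, had folds of 6.76, 6.10 and 6.13 in the NuMA-depleted and 6.34, 7.44 and 6.24 in the wild-type replicates, which overlapped. The third, on chromosome 8 at 145702412 to 145704813, had folds of 3.99, 5.79 and 5.40 in the NuMA-depleted and 4.14, 3.38 and 3.43 in the wild-type replicates, which also overlapped. Folds come from lists whose scales are not known to be common, so these orders were not tested.

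Between NuMA-depleted and wild-type cells, the share of peaks lying near chromosome ends did not differ beyond the spread of the libraries. It was 4.25%, 4.17% and 3.93% in NuMA-depleted replicates 1, 2 and 3, against 4.11%, 4.39% and 4.43% in wild-type replicates 1, 2 and 3. The groups overlapped through wild-type replicate 1. Means were 4.12% ± 0.166 in the NuMA-depleted and 4.31% ± 0.177 in the wild-type libraries (SD, n = 3 each), a difference of -0.194 percentage points with p = 0.3 (adjusted over the 3 group comparisons, p = 0.45; exact permutation test, two-sided, in which 3 against 3 cannot go below 0.1). With the strongest 21783 peaks of each library the difference was -0.0352 points (exact p = 1), and it was -0.100 points without NuMA-depleted replicate 3 and -0.295 without wild-type replicate 1. Peaks covered 1.19%, 1.63% and 0.562% of the windows' length in NuMA-depleted replicates 1, 2 and 3, against 1.02%, 1.15% and 1.06% in wild-type replicates 1, 2 and 3. The NuMA-depleted values span the wild-type ones, and the difference of 0.0487 points had p = 0.8 in the exact permutation test (adjusted p = 0.8). Without NuMA-depleted replicate 2 the difference was -0.202 points, and without NuMA-depleted replicate 3 it was 0.331.

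Closely spaced peaks near chromosome ends were a smaller share in every NuMA-depleted than in every wild-type library. The shares given above averaged 3.51% ± 0.936 in the NuMA-depleted and 4.92% ± 0.335 in the wild-type libraries (SD, n = 3 each), a difference of -1.40 percentage points with p = 0.1, the smallest the exact permutation test allows (adjusted p = 0.3). The rest of the same chromosomes differed in the same direction. Its means were 2.395% ± 0.493 for NuMA-depleted and 3.42% ± 0.510 for wild-type libraries (SD, n = 3 each). The groups were only just apart there: the highest NuMA-depleted share was 2.921% (replicate 1), the lowest wild-type share 2.923% (replicate 3). Near ends the difference was -0.873 points with NuMA-depleted replicate 3 omitted. The groups overlapped, with a difference of -0.130 points, once the strongest 21783 peaks of each library were used. They overlapped with a difference of -0.654 points when the same width and gap limit of 264 bp was imposed on all lists, and they also overlapped with windows of 1 Mb or a gap of under 5 kb. The groups stayed apart for peaks of −log10 q 5 or more (-1.13 points) and with 5 Mb windows (-1.23 points). Omitting a single library cannot make groups overlap that are already apart, so those runs do not bear on the separation. The lists had narrowest peaks of 213, 264 and 223 bp in the NuMA-depleted replicates 1, 2 and 3, against 203, 190 and 222 bp in the wild-type replicates 1, 2 and 3.

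No tested chromosome end passed the threshold for a change in its share of peaks in a test over the whole genome. With 3 libraries per group this does not show that none changed. Each chromosome was tiled in 2 Mb bins from both ends, and log2 shares in 1209 bins with at least 5 peaks on average were tested with limma with Benjamini-Hochberg adjustment. Of all bins 0 (0%) passed an adjusted p of 0.05 and 70 (5.79%) had an unadjusted p under 0.05. Of the 36 end windows tested 0 passed, and 2 had an unadjusted p under 0.05. The 20q end averaged 53 peaks per NuMA-depleted library and 61.7 per wild-type library, with a log2 difference in share of -0.26 (SE 0.11, limma adjusted p = 0.794). The 10p end averaged 19.3 peaks per NuMA-depleted library and 24.3 per wild-type library, with a log2 difference of -0.33 (SE 0.15, limma adjusted p = 0.794). The ends with the smallest p in the other direction were 16p, with 68 and 59.7 peaks in NuMA-depleted and wild-type libraries and a log2 difference of 0.16 (SE 0.10, limma adjusted p = 0.903), and 6p, with 27.7 and 26.3 peaks and 0.14 (SE 0.18, limma adjusted p = 0.940). Over the 36 ends the log2 difference had a median of -0.06 and ran from -0.33 to 0.16, with 26 below 0. Over all bins the median was -0.00199, with 611 below 0 of 1209.

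At 17q and 11q all 3 NuMA-depleted libraries had a lower share than all 3 wild-type libraries. Such a separation was seen in 6.29% of all bins, and the opposite one in 5.62% of all bins and at 0 of the 36 ends. At 17q the share was 24.1 ± 0.716 peaks per 10000 in the NuMA-depleted and 26.9 ± 1.04 in the wild-type libraries (SD, n = 3 each), with a limma log2 difference of -0.16 (SE 0.08, adjusted p = 0.794). At 11q it was 6.73 ± 0.297 in the NuMA-depleted and 7.50 ± 0.395 in the wild-type libraries (SD, n = 3 each), with a log2 difference of -0.15 (SE 0.11, limma adjusted p = 0.912).

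Few regions near chromosome ends were called in all libraries of one group and in none of the other. There were 8 called only in the NuMA-depleted libraries, or 0.334% of the regions near ends, against 0.625% of all regions. Those called only in the wild-type libraries numbered 16, or 0.668%, against 0.592% of all regions. With the strongest 21783 peaks of each library the counts were 23 depleted-only and 15 wild-type-only, of 439 and 339 among all regions, so which was higher near ends depended on the number of peaks taken. Without NuMA-depleted replicate 3, which had the shortest list, 87 were depleted-only and 16 wild-type-only, of 2691 and 370 among all regions, where the requirement on the NuMA-depleted side is weaker by construction. With all peaks and libraries, 368 regions in all were depleted-only and 349 wild-type-only. A region with no peak in a library fell short of the caller's threshold in it, and whether it was closed is not known. Omitting any library, of either group, loosens the rule by construction. The depleted-only count was 14 with NuMA-depleted replicate 1 omitted, 17 with wild-type replicate 1 omitted and 20 with wild-type replicate 2 omitted, of 585, 567 and 703 among all regions. The wild-type-only count was 31 and 49 with NuMA-depleted replicate 1 or 2 omitted, and 39 and 31 with wild-type replicate 1 or 3 omitted, of 610, 1287, 786 and 976 among all regions.

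The 8 depleted-only regions lay at 7 ends, between 358 and 1433 kb from them, and were 602 bp wide at the median, with mean folds around a median of 5.00. The strongest, on chromosome 6 at 422553 to 423221, had folds of 8.47, 9.57 and 6.87 in NuMA-depleted replicates 1, 2 and 3 and no peak in the wild-type lists. It lies on 6p, an end known to carry the transcription factor genes IRF4 and FOXC1. On chromosome 9 the region at 139776938 to 139777357 had folds of 4.32, 4.75 and 4.87 in the same 3 libraries. On chromosome 16 a region at 928450 to 928725 had folds of 10.1, 9.03 and 5.84, and another at 89475524 to 89476057 had folds of 5.73, 5.70 and 4.29. The 18q region on chromosome 18 at 77721885 to 77722623 had folds of 5.42, 5.12 and 4.89. In 4 of these 5 regions the fold was lowest in NuMA-depleted replicate 3, and in the one on 9q it was highest there. All but the one on 9q were also depleted-only among the strongest 21783 peaks of each library.

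The 16 wild-type-only regions lay at 12 ends, from 28.4 to 1800 kb from them, and were 486 bp wide at the median, with mean folds around a median of 5.77. The strongest, on chromosome 8 at 145673557 to 145674181, had folds of 5.82, 9.04 and 6.56 in wild-type replicates 1, 2 and 3 and no peak in the NuMA-depleted lists. On chromosome 2 the region at 888966 to 889504 had folds of 9.28, 9.21 and 7.08 in those libraries. The 17q region on chromosome 17 at 79543720 to 79544225 had folds of 6.31, 5.89 and 7.49, and its nearest neighbouring region was 658 bp away. The 14q region on chromosome 14 at 106410784 to 106411262 had folds of 7.50, 6.32 and 8.30. The 12p region, 74.1 kb from the end on chromosome 12 at 73844 to 74321, had folds of 6.33, 9.68 and 6.80. Of these 5, those on 8q and 2p were also wild-type-only among the strongest 21783 peaks of each library.

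**Figure D5:**
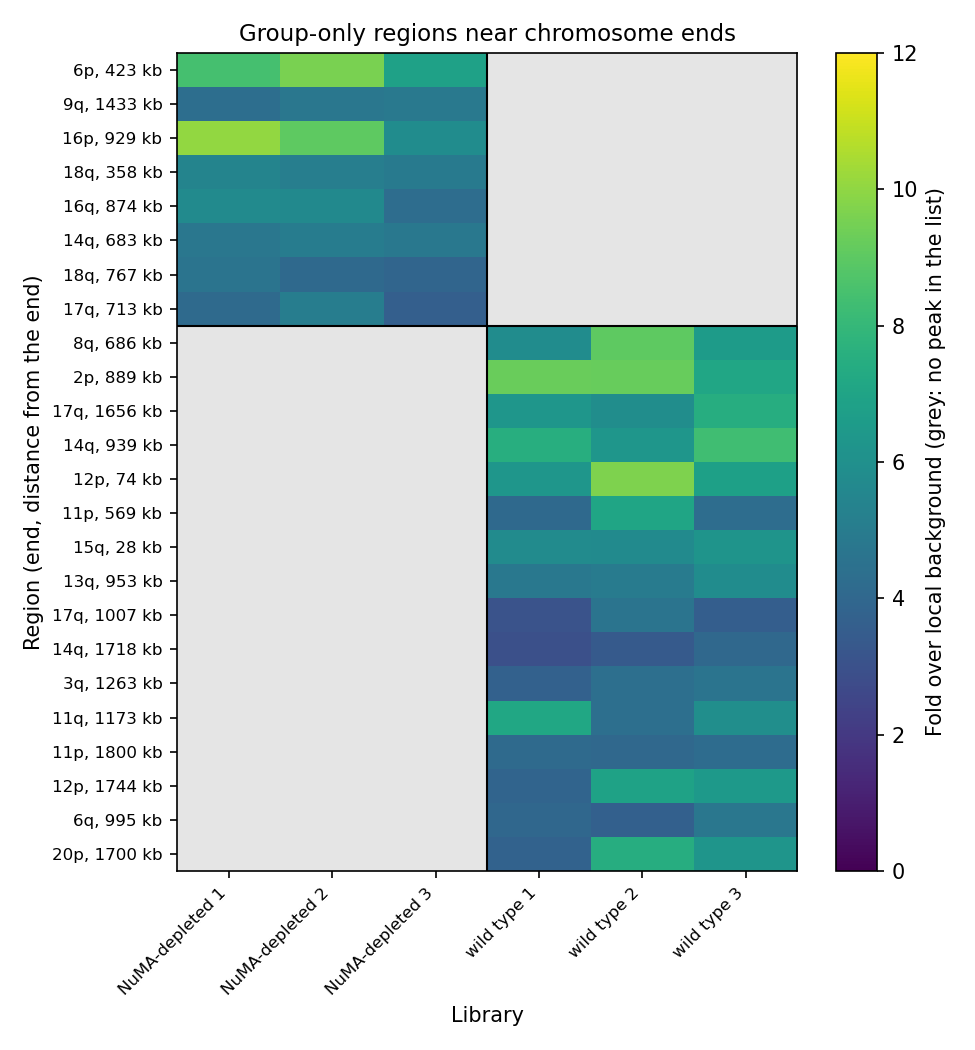
Fold over local background (colour) in each library for the 8 regions called in all 3 NuMA-depleted and no wild-type libraries (upper rows) and the 16 called in all 3 wild-type and no NuMA-depleted libraries (lower rows), named by chromosome end and distance from it. Grey marks a library with no peak there; folds in single libraries run from 2.95 to 10.1.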

How the data were processed

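The submitters' processing notes name Trim Galore, Picard, Bowtie2 2.4.1 and the build hg19, and a macs2 folder is recorded in the deposited peak names. Settings of the caller, filters on reads and any shift of read ends are not stated. The deposited lists, 1 per library, give each peak's fold over local background (a linear ratio), its −log10 p-value and −log10 q-value, and a score that follows the −log10 q and was not used. The smallest −log10 q was 2.00. Read depth is unknown. Pileup and background were solved from fold and p, and a whole-number pileup was found for at least 99.98% of peaks of each library within 0.01 on the −log10 p scale. Relative depth is the smallest background divided by the smallest width of a list.

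Peaks were assigned through their merged region. Group differences in single values used exact permutation tests and windows against rest exact sign-flip tests (scipy 1.17.1). Bin shares, as log2 with a pseudocount of 0.5, were fitted with limma 3.58.1 (R 4.3.3), and the fit was tested on simulated data. Members, lists and tests were chosen with earlier results of these data known. Named regions are the 6 strongest and 3 longest called in all 6 libraries, the 4 nearest to an end (1 per end), up to 5 group-only regions in each direction by weakest −log10 q, the 4 ends with most and fewest regions, and the 2 ends with the smallest p in each direction. No genome or annotation of hg19 was used, so sequences, motifs and genes at these regions were not analysed here. A RefSeq table on GRCh38.p14 served to check the chromosome and arm of the genes named as background.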

Additional observations from a re-analysis of the deposited data

How the results depend on the processing

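The density excess of chromosome ends kept its direction under every alternative run, from 5.76 peaks per Mb at equal numbers of peaks to 9.56. It was 8.28 to 9.56 over the fits leaving out 1 library, where the smallest p of the exact sign-flip test is 0.0625. Every library had the excess, so leaving out 1 could not reverse it. The width difference of the windows was -0.333 bp for peaks of −log10 q 5 or more, -19.9 bp at equal numbers, -1.42 bp with 1 Mb windows and -1.33 bp with 5 Mb windows, and the percentile difference to -0.330 at equal numbers. The difference in covered length between the groups was between -0.202 and 0.331 percentage points with single libraries omitted. Depleted-only regions, 8 of 368 among all regions, numbered 23 of 439 at equal numbers and 26 of 368 with 5 Mb windows. They numbered 95 of 2967 (3.20%) when 2 of 3 libraries sufficed, and 10 to 87, of 432 to 2691, with single libraries omitted. Wild-type-only regions, 16 of 349 among all regions, numbered 8 of 349 with 1 Mb windows and 38 of 349 with 5 Mb windows. They numbered 58 of 1677 (3.46%) when 2 of 3 libraries sufficed, and 16 to 49, of 370 to 1287, with single libraries omitted. Regions near ends made up 4.07% of all regions. Bins past the limma threshold numbered 0 to 2 with single libraries omitted. Both were called without NuMA-depleted replicate 3 (limma adjusted p = 0.0373) and are no end windows: one is the second bin from the 9q end and the other the third from the 4p end. The 6p log2 difference was -0.0185 for peaks of −log10 q 5 or more and between -0.13 and 0.36 with single libraries omitted. For group-only regions, omitting a library or accepting 2 of 3 loosens the rule by construction. A smaller or larger window likewise counts less or more of the genome. The cause of the other changes was not tested. The common width and gap limits and the windows without 8q, 10q, 16q and 17q were chosen after seeing the data.

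Replicate numbers were shared by the groups. Across bins, the deviations of same-numbered libraries had correlations of -0.07, 0.12 and 0.04. Those of differently numbered libraries ran from -0.13 to 0.09. Same-numbered libraries were not treated as pairs. A replicate block cannot change a mean difference over 3 complete pairs, so it bears only on the p-values. With it the share difference of -0.194 had p = 0.5 in the exact sign-flip test. The difference of -1.40 in closely spaced peaks had p = 0.25 in the exact sign-flip test, the smallest that 3 pairs allow. With the block 0 bins passed the limma threshold.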
